A study of Mus musculus with 6 samples.

Results

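The clustered histone genes of the mouse were followed in embryonic stem cells with and without the transcription factor partner MAX. Members were the protein-coding genes whose GENCODE M21 symbol begins with Hist1h, Hist2h, Hist3h or Hist4h, and 67 of the 56689 identifiers listed in each library met that rule. They comprised 6 linker H1 genes and 18 H2A, 18 H2B, 12 H3 and 13 H4 genes. The Hist1 cluster on chromosome 13 held 54 of them, the Hist2 cluster on chromosome 3 held 10, the Hist3 locus on chromosome 11 held 2 and the Hist4 locus on chromosome 6 held 1. A further 3 pseudogenes with matching symbols were left out.

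The cells were C57BL/6 embryonic stem cells, pluripotent cells derived from the early embryo. One group was wild type (WT, 3 libraries) and the other carried the Max-/- genotype (Max-KO, 3 libraries). How the Max allele was made, whether the knockout was a single clone, and the age of the cultures are not given in the sources used here. The labels do not say whether a group's samples were separate cultures. The p-values therefore measure the spread between these samples, which may be technical. RNA was taken up in Trizol and total RNA went into an Illumina TruSeq RNA kit. Whether polyadenylated RNA was selected, and whether strand was kept, are not given in the sources used here.

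Histones package DNA. A pair each of H2A, H2B, H3 and H4 form the nucleosome core, and linker H1 binds where the DNA enters and leaves it. Most genes of the clusters are replication-dependent: they are transcribed in S phase, have no introns, and their mRNA ends in a conserved stem-loop bound by SLBP in place of a poly(A) tail. Some members can also give longer, polyadenylated transcripts, and linker subtype Hist1h1c (H1.2) and H2B gene Hist1h2bc are among those. Histone genes outside the clusters, such as H1f0, H2afz and H3f3b, make polyadenylated mRNA through the whole cell cycle. MAX is the dimer partner through which MYC and related proteins bind the E-box CACGTG.

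Stretches just upstream of 4 rising genes follow, chosen after their values were seen. Hist2h2be and Hist3h2a had WT means under 1 FPKM, so by the filter given below their calls could only be upward. Hist2h2aa1, which was called in as many settings as these 2, is not shown. The stretches are RefSeq promoter sequence on GRCm38, 5′ to 3′ on the strand named. Capitals mark the octamer (ATTTGCAT or its complement ATGCAAAT), the CCAAT box (CCAAT or ATTGG) and TATAAA. Hist1h2bc and Hist2h2be had no matched RefSeq promoter, so for both the stretch between their start and the start of the H2A gene on the opposite strand is shown, as read towards that H2A gene.
Hist1h1c, chr13:23738657-23738806, plus strand: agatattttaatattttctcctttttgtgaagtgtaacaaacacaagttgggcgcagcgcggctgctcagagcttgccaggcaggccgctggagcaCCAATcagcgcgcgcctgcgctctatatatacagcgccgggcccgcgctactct
Hist1h2ac and Hist1h2bc, chr13:23683960-23684198, minus strand: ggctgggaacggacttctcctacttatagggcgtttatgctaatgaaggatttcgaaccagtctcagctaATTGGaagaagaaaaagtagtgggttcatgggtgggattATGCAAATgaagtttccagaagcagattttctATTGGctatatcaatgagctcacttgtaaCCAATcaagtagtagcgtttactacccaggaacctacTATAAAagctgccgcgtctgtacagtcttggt
Hist2h2ac and Hist2h2be, chr3:96220881-96221118, minus strand: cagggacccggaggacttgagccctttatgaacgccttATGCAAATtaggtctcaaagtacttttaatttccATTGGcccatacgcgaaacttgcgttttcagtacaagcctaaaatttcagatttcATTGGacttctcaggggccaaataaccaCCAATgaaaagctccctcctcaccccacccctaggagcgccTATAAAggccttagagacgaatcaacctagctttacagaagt
Hist3h2a, chr11:58954535-58954684, plus strand: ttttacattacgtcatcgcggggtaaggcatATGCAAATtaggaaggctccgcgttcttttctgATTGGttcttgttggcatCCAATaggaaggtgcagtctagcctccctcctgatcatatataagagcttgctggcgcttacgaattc

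The E-box, octamer, CCAAT and TATA motifs were searched on both strands in promoters running from 250 bases before to 50 bases after the start, and 61 of the 67 members had a RefSeq promoter whose start lay within 100 bases of the GENCODE start. CACGTG was found in 0 of the 61, against 7.24% of all 27025 promoters. The octamer ATTTGCAT was found in 13 of 61 (21.3%), against 1.75% of all promoters. It occurred in 7 of 18 H2A and 6 of 16 H2B promoters and in none of the 5 H1, 10 H3 and 12 H4 promoters. CCAAT was found in 52 of 61, against 37.9% of all promoters, and the 9 promoters without it were all H4. TATAAA was found in 34 of 61, against 14.2% of all promoters. H2A and H2B genes that start close together on opposite strands have overlapping promoters. The same motif can then be counted for both genes, so the promoters are not independent. These are matches of letters in a window, which say nothing of binding.

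The deposited values are FPKM, fragments per kilobase of transcript, scaled to the mapped fragments of the library. The members were low in this scale. In each library all 67 together came to 141 to 148 FPKM in WT and 179 to 210 FPKM in Max-KO, which was 0.0190% to 0.0193% of all summed FPKM in WT and 0.0272% to 0.0325% in Max-KO. For comparison, H2afz, an H2A variant gene outside the clusters, was at 1184 to 1263 FPKM in WT by itself. H2afz mRNA carries a poly(A) tail and most clustered histone mRNA does not. Because it is not given whether polyadenylated RNA was selected, these levels cannot be compared as amounts of mRNA in the cells. Values of 0 in all 6 libraries were listed for 4 members (Hist1h2ao, Hist1h2ba, Hist1h4m and Hist2h2ab), and 46 members were above 0 in all 6. Of the 50-base stretches of Hist1h2ao and Hist1h4m, 93.5% and 89.8% also occur in another member. How the counting shared such fragments is not known. The test took genes whose mean reached 1 FPKM in WT, in Max-KO or in both, which 41 members did and 26 did not. Of the 41, 8 passed only through Max-KO and 2 only through WT, so the direction of those 10 was set by the filter.

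Max itself was at 41.6, 50.2 and 42.28 FPKM in WT and at 35.79, 39.6 and 43.4 FPKM in Max-KO, so its summed gene level did not separate the labels. Where the allele was changed is not given, so this level does not check them. Libraries correlated at 0.992 to 0.993 within a genotype and at 0.958 to 0.966 between genotypes (Pearson's r across genes, which are not independent replicates). All 8 embryonic stem cell markers had a difference above 0, and 6 of them rose, as did 43.0% of all genes tested. The median log2 difference of all genes tested was 0.21. Esrrb (0.10) and Pou5f1 (0.16) lay below that median, and the 6 that rose lay above it. Fibroblast markers summed to 7.88 to 8.25 FPKM in WT and 7.91 to 9.78 FPKM in Max-KO, and primitive endoderm markers to 0.78 to 1.47 and 3.16 to 6.65 FPKM. The part of either in the histone differences was not tested.

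Summed by class, the linker and H2B genes stood apart. H1 genes summed to 2.55, 3.72 and 3.74 FPKM in WT and to 18.06, 17.81 and 13.06 FPKM in Max-KO. H2B genes summed to 28.72, 26.52 and 23.83 FPKM in WT and to 43.64, 48.62 and 41.74 FPKM in Max-KO. H4 genes summed to 37.7 ± 2.83 FPKM in WT and 49.1 ± 7.30 FPKM in Max-KO (SD, n = 3). In these 3 classes every Max-KO library was above every WT library, and the exact permutation test gave p = 0.1 (2-sided) for each, the smallest that 3 against 3 allows. The H4 ranges came close, with a highest WT sum of 40.86 and a lowest Max-KO sum of 42.3 FPKM.

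H2A and H3, the other core classes, overlapped between the genotypes. H2A genes summed to 51.4 ± 4.93 FPKM in WT and 54.9 ± 3.03 FPKM in Max-KO (SD, n = 3; exact permutation p = 0.4), and the log2 ratio of 0.10 turned to -0.16 with median-ratio scaling and to -0.32 with quantile normalization. H3 genes summed to 25.99 ± 2.31 FPKM in WT and 26.2 ± 5.59 FPKM in Max-KO (SD, n = 3; exact permutation p = 1.0), and their log2 ratio, near 0, changed sign with TPM scaling (0.21). The H1 and H2B ratios stayed positive in every scaling tried, at 1.69 to 2.51 and 0.25 to 0.98 on the log2 scale. The H4 ratio was 0.37 as deposited and 0.0074 with quantile normalization.

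**Figure D1:**
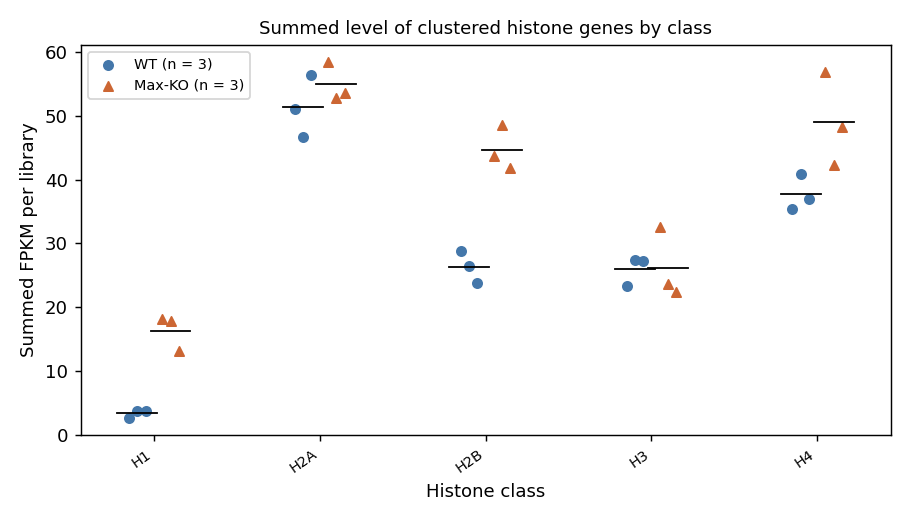
Summed FPKM of the 6 H1, 18 H2A, 18 H2B, 12 H3 and 13 H4 genes in each library, with circles for WT, triangles for Max-KO and a bar at each group's mean. The Max-KO libraries lie at 13.06 to 18.06 FPKM for H1 and 41.74 to 48.62 FPKM for H2B, above all WT libraries, while H2A and H3 overlap.

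A single gene carried most of the difference in each of H1 and H2B. Of the H1 sum, Hist1h1c made up 52.5% ± 8.67 in WT libraries and 84.3% ± 2.87 in Max-KO libraries (SD, n = 3). Of the H2B sum, Hist1h2bc made up 14.7% ± 6.49 in WT libraries and 46.5% ± 0.76 in Max-KO libraries (SD, n = 3). Together these 2 genes gained 29.1 of the 46.4 FPKM by which the mean sum of all 67 was higher in Max-KO. With Hist1h2bc left out, a choice made after seeing the data, H2B summed to 22.6 ± 3.66 FPKM in WT and 23.9 ± 1.55 FPKM in Max-KO (SD, n = 3; exact permutation p = 0.9). With both left out, the sum of the other 65 was 139 ± 2.47 FPKM in WT and 157 ± 15.3 FPKM in Max-KO (SD, n = 3), still without overlap.

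Gene by gene, limma on log2(FPKM + 1) called 10 of the 41 tested members higher and 2 lower in Max-KO at a Benjamini-Hochberg adjusted p under 0.05 over all genes tested. That is 24.4% and 4.88%, against 43.0% called higher and 23.2% called lower among all 14650 genes tested (66.2% in either direction). Groups did not overlap for 9 tested members with Max-KO higher and 2 with Max-KO lower, against 46.3% and 25.7% of all genes. Both shares of members lay below those of all genes, a difference that was not tested. Of the 10 called higher, 5 had a WT mean under 1 FPKM and passed the filter only through Max-KO, so that a call could only be upward. Among the 31 members at 1 FPKM or more in both group means, 5 were called higher and 2 lower. Standard errors of the 41 members were wider: the median SE of the log2 difference was 0.26 for members and 0.11 for all genes. The median log2 difference was 0.14 for members and 0.21 for all genes. A mean under 20 FPKM over the 6 libraries was found for 40 of the 41. Among all 9726 tested genes under that level, 47.2% were called higher and 16.8% lower. Their median SE was 0.13 and their median log2 difference 0.34. By class, calls were 1 higher of 2 H1 genes tested, 3 higher and 1 lower of 11 H2A, 4 higher of 12 H2B, 1 higher and 1 lower of 8 H3, and 1 higher of 8 H4.

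**Figure D2:**
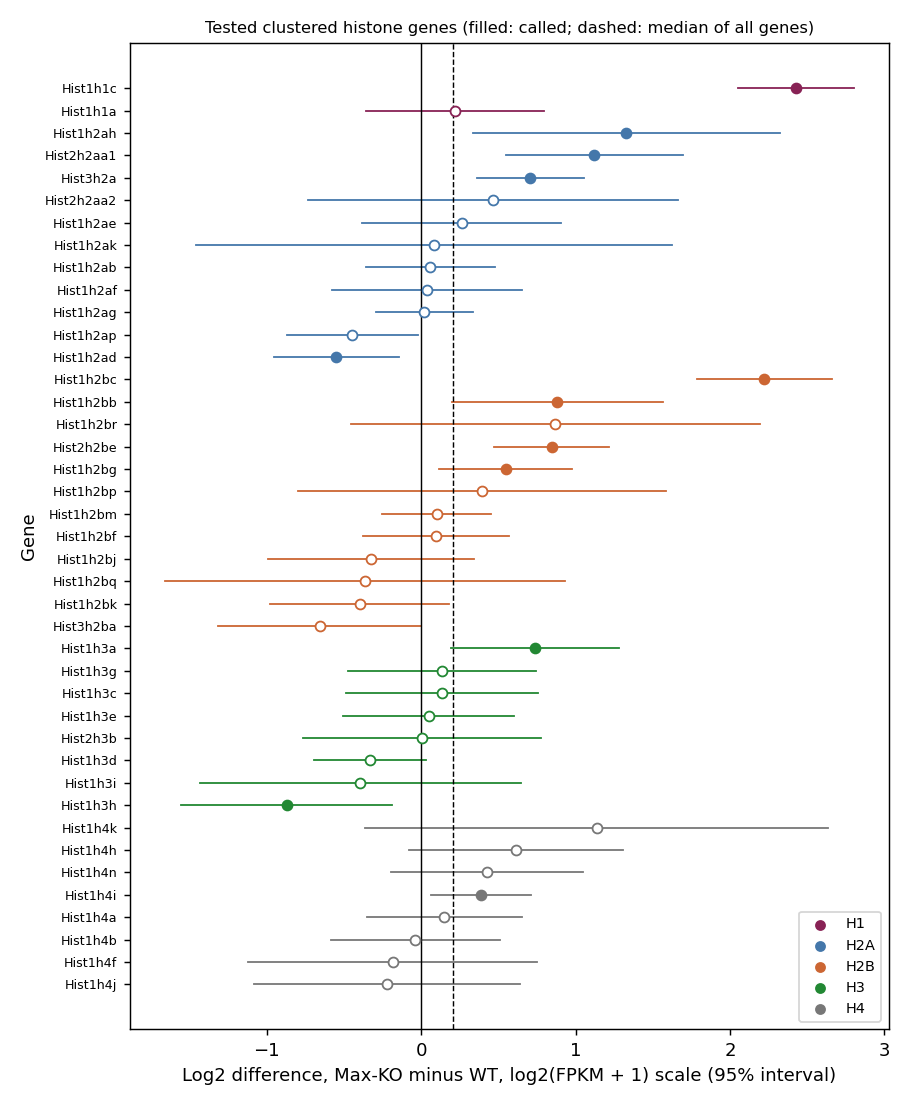
Log2 difference (Max-KO minus WT, log2(FPKM + 1) scale) of the 41 tested members with 95% intervals, coloured by class, filled where called, and with a dashed line at the median of all genes (0.21). Hist1h1c at 2.43 and Hist1h2bc at 2.22 lie beyond all other members, most of which have intervals that span 0.

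Hist1h1c is the linker subtype H1.2 (chr13:23738808-23740367, 1 exon). It was at 1.53, 1.60 and 2.04 FPKM in WT and at 15.07, 15.58 and 10.70 FPKM in Max-KO. The lowest Max-KO library was thus far above the highest WT library. The gene rose by 2.43 ± 0.16 on the log2 scale (SE; limma adjusted p = 2.28e-05), and the ratio of the means was 7.998.

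The other linker genes stayed low. Hist1h1a (H1.1) was at 0.74, 1.30 and 1.16 FPKM in WT and 2.28, 1.39 and 0.73 FPKM in Max-KO, with a difference of 0.22 ± 0.24 (SE; limma adjusted p = 0.457). Hist1h1b (H1.5) did not exceed 0.95 FPKM, Hist1h1e (H1.4) 0.28 FPKM and Hist1h1d (H1.3) 0.17 FPKM in any library, so these were not tested. Hist1h1t, the testis linker form, was between 0 and 0.32 FPKM. Without Hist1h1c the H1 genes summed to 1.02, 2.12 and 1.70 FPKM in WT and to 2.99, 2.23 and 2.36 FPKM in Max-KO. Those groups lay next to each other without overlap (exact permutation p = 0.1).

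Hist1h2bc encodes a core H2B (chr13:23684199-23692908, 2 exons in GENCODE). It was at 3.04, 2.99 and 5.28 FPKM in WT and at 20.26, 23.02 and 19.13 FPKM in Max-KO, so that the groups were far apart. It rose by 2.22 ± 0.19 on the log2 scale (SE; limma adjusted p = 6.36e-05). Its H2A neighbour on the opposite strand, Hist1h2ac, starts 251 bases away. That gene stayed between 0.04 and 0.11 FPKM in WT and between 0.09 and 0.22 FPKM in Max-KO and was not tested.

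Hist2h2be, an H2B gene of the Hist2 cluster (chr3:96221119-96223738), also lies head to head with an H2A gene. It was at 0.19, 0.21 and 0.27 FPKM in WT and 1.23, 1.59 and 0.84 FPKM in Max-KO, and rose by 0.85 ± 0.16 (SE; limma adjusted p = 0.00258). Its mean in WT was under 1 FPKM, so a call could only be upward, and the log2(FPKM + 1) scale understates the 5.46-fold ratio of means. Hist2h2ac, the H2A gene 239 bases away, was at 0.92, 0.52 and 0.66 FPKM in WT and 1.10, 0 and 1.09 FPKM in Max-KO. The groups of Hist2h2ac overlapped.

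Hist3h2a, the H2A gene of the Hist3 locus (chr11:58954685-58956830), was at 0.77, 0.87 and 0.53 FPKM in WT and at 1.96, 2.08 and 1.42 FPKM in Max-KO. It rose by 0.71 ± 0.15 (SE; limma adjusted p = 0.00437), and it too had a WT mean under 1 FPKM. The annotation places it over Trim17 on the same strand, which was at 0.13 to 0.21 FPKM in WT and 0.38 to 0.85 FPKM in Max-KO, and how the counting shared fragments between them is not known. The other gene of that locus, the H2B gene Hist3h2ba, was at 4.15, 5.46 and 3.76 FPKM in WT and at 3.91, 2.58 and 1.30 FPKM in Max-KO. That difference was -0.66 ± 0.28 (SE; limma adjusted p = 0.0719) and was not called.

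**Figure D3:**
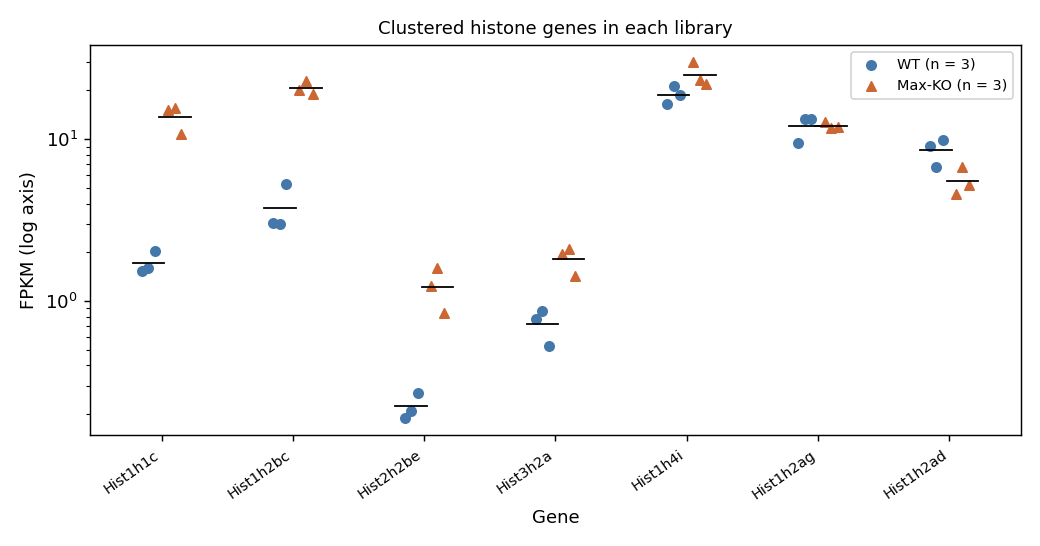
FPKM of 7 clustered histone genes in each library on a log axis, with circles for WT, triangles for Max-KO and bars at group means. Hist1h1c, Hist1h2bc, Hist2h2be and Hist3h2a separate by genotype, while Hist1h2ag, the highest H2A gene, is at 9.48 to 13.32 FPKM in WT and 11.64 to 12.70 FPKM in Max-KO.

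The highest members in WT were other genes, and most of them were not called. Hist1h4i, an H4 gene (chr13:22040636-22041362), was the highest clustered histone, at 16.44, 21.26 and 18.61 FPKM in WT and 29.81, 23.06 and 21.93 FPKM in Max-KO. Its share of the H4 sum was 49.6% ± 2.84 in WT libraries and 50.8% ± 4.74 in Max-KO libraries (SD, n = 3). Its rise of 0.39 ± 0.14 (SE) was called at limma adjusted p = 0.0401, with the lowest Max-KO library just above the highest WT library. The call was lost without WT 1, WT 3, Max-KO 1 or Max-KO 2, where the difference was 0.26 to 0.43 and the adjusted p was 0.0596 to 0.12.

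Among H2A genes the highest was Hist1h2ag, at 12.02 ± 2.20 FPKM in WT and 12.1 ± 0.551 FPKM in Max-KO (SD, n = 3; difference 0.02, 95% interval -0.29 to 0.33). Hist1h2af was at 8.35, 5.81 and 8.91 FPKM in WT and at 7.14, 5.64 and 11.63 FPKM in Max-KO, with full overlap. Hist1h2ap was at 11.22, 9.36 and 9.93 FPKM in WT and at 9.81, 6.58 and 5.69 FPKM in Max-KO, a difference of -0.45 ± 0.18 that was not called (SE; limma adjusted p = 0.0622). These 3 genes encode canonical core H2A. Of their 50-base stretches 78.9% (Hist1h2ag), 79.7% (Hist1h2af) and 93.1% (Hist1h2ap) also occur in another member. The split of fragments between them and other members is therefore uncertain.

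Only Hist1h2ad and Hist1h3h were called lower. Hist1h2ad, a core H2A gene, was at 9.09, 6.70 and 9.84 FPKM in WT and 4.60, 6.73 and 5.22 FPKM in Max-KO, so that 1 library of each group overlapped (-0.55 ± 0.17, SE; limma adjusted p = 0.0248). Hist1h3h, a core H3 gene, was at 2.98, 5.30 and 6.11 FPKM in WT and 2.79, 2.52 and 1.18 FPKM in Max-KO, where the groups lay next to each other (-0.87 ± 0.29, SE; limma adjusted p = 0.0311). Of the 50-base stretches, 67.1% in Hist1h2ad and 93.9% in Hist1h3h also occur in another member, so their levels depend on an uncertain split. Neither call held when single libraries were left out. Without WT 1, WT 3, Max-KO 1 or Max-KO 3, Hist1h2ad had a limma adjusted p of 0.0711 to 0.0793. Without WT 2, WT 3 or Max-KO 3, Hist1h3h had one of 0.0818 to 0.0942.

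The remaining 5 calls upward were Hist2h2aa1, Hist1h2ah, Hist1h2bb, Hist1h2bg and Hist1h3a, all core histones at low levels. Hist2h2aa1, Hist1h2ah and Hist1h2bb had WT means under 1 FPKM, so their calls too could only be upward. Without the filter Hist1h2bb, Hist1h2bg and Hist1h3a were not called (limma adjusted p = 0.0611, 0.0605 and 0.0531). Nor were Hist1h4i, Hist1h2ad and Hist1h3h, described above (limma adjusted p = 0.0805, 0.052 and 0.0617). Hist2h2aa1 (H2A) was at 0.33, 0.35 and 0.63 FPKM in WT and 1.13, 2.82 and 2.70 FPKM in Max-KO (1.12 ± 0.24, SE; limma adjusted p = 0.00518). Of its 50-base stretches 89.2% also occur in another member, and its copy Hist2h2aa2 shares 100% of its own, so the split between them is uncertain. Summed, the pair was at 2.59, 1.92 and 4.93 FPKM in WT and 7.53, 8.40 and 4.10 FPKM in Max-KO, which overlapped.

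Hist1h2ah (H2A) was listed at 0, 0.73 and 0 FPKM in WT and at 3.93, 0.71 and 2.25 FPKM in Max-KO (1.33 ± 0.42, SE; limma adjusted p = 0.027). Its groups overlapped despite the call. Of its 50-base stretches 90.7% also occur in another member, so its level too depends on an uncertain split. Hist1h3a (H3) was at 1.85, 2.75 and 0.94 FPKM in WT and 3.47, 3.38 and 3.91 FPKM in Max-KO (0.74 ± 0.23, SE; limma adjusted p = 0.0252). Hist1h2bb and Hist1h2bg, both H2B, differed by 0.88 ± 0.29 and 0.55 ± 0.18 (SE; limma adjusted p = 0.0301 and 0.0315). Each of these 4 calls was lost when some single library was left out, with adjusted p up to 0.0811 for Hist1h2ah (WT 3, also without WT 1, Max-KO 1 or Max-KO 3), 0.0759 for Hist1h3a (Max-KO 3, also without WT 1, Max-KO 1 or Max-KO 2), 0.0959 for Hist1h2bb (Max-KO 3, also without WT 1, WT 3 or Max-KO 1) and 0.0907 for Hist1h2bg (Max-KO 1, also without WT 1, WT 2 or Max-KO 3).

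Over the 13 alternative settings of processing and libraries, Hist1h1c and Hist1h2bc were called higher in all 13. Hist2h2be, Hist3h2a and Hist2h2aa1 were called in 12 and lost with quantile normalization, where their differences were 0.18, 0.19 and 0.54. The other 7 called members lost the call in at least 6 of the 13.

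The fragments behind each member were estimated next. FPKM does not state depth, but low values of genes with 1 transcript fell near whole multiples of a step per library, from which a depth of 20.9 to 28.3 M fragments per library was estimated. Between 84.5% and 88.7% of those values were within 0.15 of a whole number, where 30% would be for a step fixed independently, and the steps were chosen on the same values. On that scale Hist1h1c rested on about 46.4 to 61.9 fragments per WT library and 393 to 483 per Max-KO library. Hist1h2bc rested on 59.7 to 110 and 431 to 484. Of the 61 members with an estimate, 31 had a mean under 10 fragments per library and 8 had at least 50. Among tested members the median SE was 0.26 for the 27 under 30 fragments, 0.17 for the 7 with 30 to 100, and 0.16 for the 3 with at least 100. The errors varied widely at low numbers, from 0.15 to 0.63 among the 27, and the part of depth in them was not tested.

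**Figure D4:**
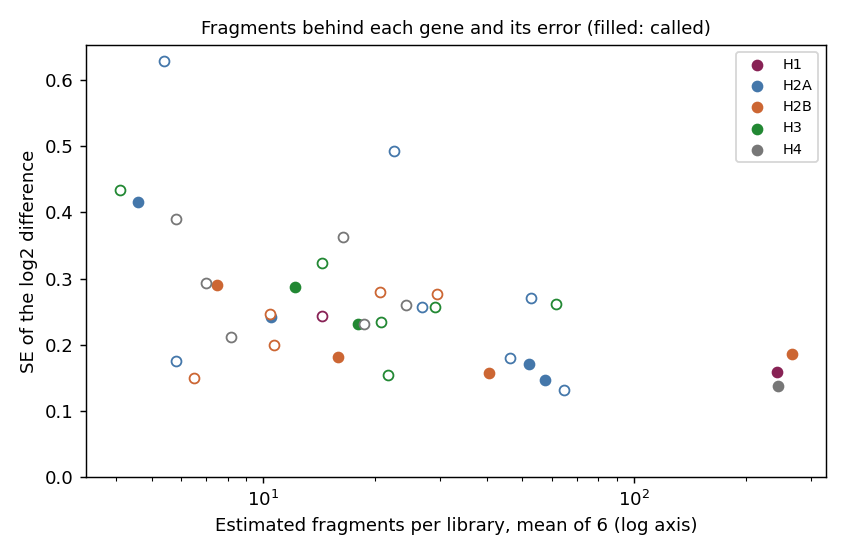
Standard error of the log2 difference against the mean estimated fragments per library (log axis) for tested members with 1 transcript of at least 350 bases, coloured by class and filled where called. The 3 genes with at least 100 fragments, Hist1h1c, Hist1h2bc and Hist1h4i, have a median SE of 0.16, while the genes under 30 fragments range from 0.15 to 0.63.

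The 3′ end of the annotated transcript was then read in each member, because the ends decide which histone mRNAs carry a poly(A) tail. A 16-base stem-loop was searched in the longest coding transcript. It is shown here for 3 members, with the 4 bases of the loop in capitals; Hist1h2ag ends at its stem-loop and the others run on.
Hist1h1c: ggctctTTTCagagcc
Hist1h2ag: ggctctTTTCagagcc
Hist1h4i: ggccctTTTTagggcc

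In Hist1h1c the model ran on for 840 bases after the stem-loop and held a poly(A) signal (AATAAA or ATTAAA) in its last 50 bases. In Hist3h2a it ran on for 1643 bases and in Hist1h4i for 330 bases, both also with such a signal. Hist2h2be, with a transcript of 2620 bases, had the signal and no stem-loop match, and Hist1h2bc had neither within its model. Hist1h2ag ended 23 bases after its stem-loop.

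Grouped by end, 22 members stopped within 100 bases of a stem-loop, of which 18 were tested, 3 called higher and 1 lower. Another 23 ran on past it, of which 10 were tested and 4 called higher. A further 7, all tested, had a 3′ untranslated region without a match, and 2 of them were called higher. In the other 15 the model ended with the coding sequence, and of 6 tested 1 was called higher and 1 lower. The shares of all genes tested were 43.0% higher and 23.2% lower. Split at 1000 bases, a length chosen after seeing the data, 4 of the 7 tested members with longer transcripts were called higher (57.1%), against 6 of 34 with shorter ones (17.6%) and 43.0% of all genes. Hist2h2be and Hist3h2a, among the 4, passed the filter only through Max-KO, so their calls could only be upward, and nothing is read from this split. Longer transcripts give more fragments per FPKM, and the part of end type, length and precision in this count was not tested.

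H2A and H2B genes of the clusters often lie head to head, and 12 such pairs had starts within 500 bases. In 3 of the 12 pairs the H2B gene was higher in every Max-KO library, as were 46.3% of all genes tested, and the H2A gene overlapped: Hist1h2ac with Hist1h2bc, Hist2h2ac with Hist2h2be, and Hist1h2ae with Hist1h2bg. Hist1h2ae was at 5.35, 4.82 and 3.09 FPKM in WT and 6.69, 6.79 and 3.35 FPKM in Max-KO. Hist1h2bg, 176 bases away, was at 1.27 ± 0.187 FPKM in WT and 2.37 ± 0.74 FPKM in Max-KO (SD, n = 3). In the other 9 pairs both genes overlapped between the groups. The difference between the partners of a pair was not tested.

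The testis histones of the clusters stayed near 0. Hist1h2ba (TH2B) was listed at 0 in all 6 libraries and Hist1h2aa (TH2A) at 0 in WT and at 0, 0.37 and 0.27 FPKM in Max-KO. Of 13 genes found from a list for testis and sperm chromatin, protamines and transition proteins among them, none reached 1 FPKM in a group mean. Together they summed to at most 0.99 FPKM in any library. H2bfm, an H2B family gene outside that list, rose from a mean of 0.02 FPKM in WT to 10.6 FPKM in Max-KO. In the same libraries the 5 germ cell markers, led by Dazl, all rose, from 26.5 to 32.4 FPKM summed in WT to 846 to 881 FPKM in Max-KO. Among all genes tested 43.0% rose.

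Of 19 histone genes found outside the clusters, 12 were tested, and 6 of these rose and 6 fell, where 43.0% and 23.2% of all genes did. The other 7 stayed under 1 FPKM in both group means. H1f0, which encodes linker histone H1.0, was at 21.49, 20.59 and 20.54 FPKM in WT and 49.35, 62.06 and 66.95 FPKM in Max-KO. It rose by 1.46 ± 0.11 (SE; limma adjusted p = 4.28e-05), so that Hist1h1c inside the clusters and H1f0 outside them both rose. H2bfm, an H2B family gene, was listed at 0, 0.06 and 0 FPKM in WT and at 14, 9.51 and 8.43 FPKM in Max-KO (3.48 ± 0.18, SE; limma adjusted p = 9.21e-06).

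The H3.3 genes H3f3a and H3f3b encode the same protein and went opposite ways. H3f3b, at 351 ± 3.58 FPKM in WT and 699 ± 15.4 FPKM in Max-KO (SD, n = 3), rose by 0.99 on the log2 scale (limma adjusted p = 6.74e-06). H3f3a fell from 579 ± 12.4 to 455 ± 8.28 FPKM (SD, n = 3; -0.35, limma adjusted p = 6.26e-04), although with quantile normalization its difference was 0.0072. H2afy (macroH2A1) fell from 167 ± 1.74 to 76.8 ± 12.9 FPKM (SD, n = 3; -1.12, limma adjusted p = 1.23e-04), and H2afz (H2A.Z) from 1213 ± 43.5 to 757 ± 50.2 FPKM (SD, n = 3; -0.68, limma adjusted p = 1.24e-04; -0.14 and 0.0611 with quantile normalization).

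**Figure D5:**
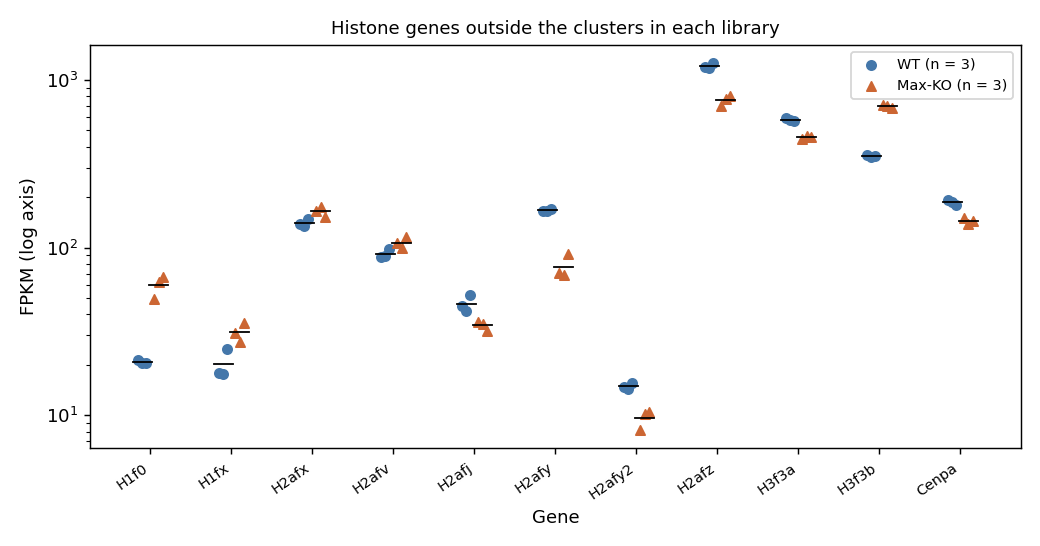
FPKM of 11 histone genes outside the clusters in each library on a log axis, with circles for WT, triangles for Max-KO and bars at group means. H1f0 and H3f3b lie higher in all Max-KO libraries, and H2afy, H2afz, H3f3a and Cenpa lie lower in the deposited FPKM.

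Genes that transcribe or process clustered histone mRNA moved in both directions: of 24 tested, 8 rose (33.3%) and 7 fell (29.2%), near the 43.0% and 23.2% of all genes. With TPM scaling 13 were called higher and 5 lower, and with median-ratio scaling 5 and 10. Among all genes TPM scaling called 53.7% higher and 16.1% lower, and median-ratio scaling 30.7% and 33.9%. Casp8ap2 (FLASH), needed for histone pre-mRNA cleavage, was at 18.65, 17.48 and 9.17 FPKM in WT and 24.89, 28.74 and 30.54 FPKM in Max-KO (0.91 ± 0.25, SE; limma adjusted p = 0.0188; 0.0531 and 0.0619 without Max-KO 2 and Max-KO 3). Npat, the histone gene co-activator, rose from 10.8 ± 1.86 to 17.8 ± 0.235 FPKM (SD, n = 3; limma adjusted p = 0.00203). Snrpf and Snrpd3, Sm proteins of the spliceosomal particles and of the U7 particle that cleaves histone pre-mRNA, fell by 0.72 and 0.69 on the log2 scale (limma adjusted p = 3.62e-05 and 0.00201). Slbp itself was at 71.8 to 83.6 FPKM in WT and 84.8 to 87.0 FPKM in Max-KO, without overlap and not called (limma adjusted p = 0.0863).

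Of 26 histone chaperones tested, 11 were called lower and 4 higher, a balance that was 7 lower and 12 higher with TPM scaling and 15 lower and 0 higher (also 0 by unadjusted p in limma) with median-ratio scaling. The shares of all genes were 23.2% lower and 43.0% higher as deposited. They were 16.1% and 53.7% with TPM scaling, and 33.9% and 30.7% with median-ratio scaling. Npm1 (nucleophosmin) fell from 4903 ± 656 to 2135 ± 57.9 FPKM, Nap1l1, an H2A-H2B chaperone, from 730 ± 49.5 to 362 ± 16.6 FPKM, and Chaf1b, a CAF-1 subunit, from 54.8 ± 3.06 to 28.6 ± 2.89 FPKM (SD, n = 3; limma adjusted p = 7.01e-05, 2.65e-05 and 1.10e-04). Hjurp, the CENP-A chaperone, rose from 72.4 ± 6.36 to 95.6 ± 3.39 FPKM (SD, n = 3; limma adjusted p = 0.00246; 0.0937 with median-ratio scaling), while Cenpa fell from 187 ± 6.71 to 144 ± 6.23 FPKM (SD, n = 3; limma adjusted p = 8.97e-04; 0.0512 with TPM scaling).

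Clustered histone mRNA follows S phase, so S phase genes were set beside it. Of 12 tested, 7 fell and 1 rose, beside 23.2% lower and 43.0% higher among all genes. The falls ran from -0.17 (Rrm1, limma adjusted p = 0.0486) to -0.94 (Rrm2). This count was not repeated in the other scalings, where the median gene moved from 0.21 as deposited to 0.41 with TPM. Rrm2, a ribonucleotide reductase subunit, fell from 175 ± 1.77 to 90.9 ± 5.90 FPKM (SD, n = 3; limma adjusted p = 1.97e-05). Mcm4 was the gene that rose, by 0.17 (limma adjusted p = 0.014), with a difference of -0.0787 under median-ratio scaling and an adjusted p of 0.0541 without Max-KO 2. In bulk samples fewer cells in S phase and less RNA per cell cannot be told apart, and the part of either in the histone values was not tested.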

How the data were processed

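The authors deposited FPKM per gene for each of 6 libraries (3 WT, 3 Max-KO). Build GRCm38.p6 and the tools RSEM, HISAT2 2.1.0, DESeq 1.26.0 and FastQC are listed, per the submitters' processing notes, without role or order. Kept for testing were 14650 annotated genes whose mean reached 1 FPKM in either genotype. Values were taken as log2(FPKM + 1) and tested 2-sided with limma 3.58.1 (R 4.3.3), moderated with a trend and robustly, with genotype as the only factor and Benjamini-Hochberg adjustment over all 14650. Differences are Max-KO minus WT. Summed FPKM were compared by exact permutation over samples. The fit was tested on simulated data. Sums and exact tests used Python 3.11.15 and scipy 1.17.1.

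The members and the gene lists were chosen with earlier results of these data known. The naming rule took all linker genes and testis forms. Of each core class it took the 3 highest members and the 2 largest rises and falls. From each related list it took up to 3 called genes and 1 opposite. Meeting the rule but not described were Hist1h2bj, Hist1h2bk, Hist1h3c, Hist1h3g, Hist1h3i, Hist1h4b, Hist1h4f, Hist1h4h, Hist1h4j, Hist1h4k and Hist1h4n. Log2 differences of these ran from -0.40 (Hist1h2bk) to 1.14 (Hist1h4k, limma adjusted p = 0.147). None of them was called, so the members described lean towards called genes. Hist1h2ac, Hist1h2ae, Hist1h2bg, Hist2h2aa2, Hist2h2ac, Hist2h2be, Hist3h2a, Npat, Slbp, H2afz, H3f3a, H3f3b, Cenpa, Mcm4 and Rrm2 were named after their values were seen. Alternatives were a pseudocount of 0.1, no filter, TPM, median-ratio and quantile scaling, a replicate block, plain moderation and leaving out each library.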

Additional observations from a re-analysis of the deposited data

How the results depend on the processing

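The scaling between libraries moved the background. Of all calls, 64.9% were higher in Max-KO as reported, 76.9% with TPM, 47.5% with median-ratio scaling and 46.7% with quantile normalization, and in the same order the median gene differed by 0.21, 0.41, -0.01 and -0.02 (log2), and the median member by 0.14, 0.30, -0.05 and -0.28. Reported were 10 members higher and 2 lower. Median-ratio scaling gave 6 and 5, and quantile normalization 2 and 8. Among all genes median-ratio scaling called 30.7% higher and 33.9% lower, and quantile normalization 28.8% and 33.0%. No member was called lower by limma without the filter or with TPM (2 and 1 had an unadjusted p under 0.05 and a lower value). Of all genes 11.0% and 16.1% were called lower in those settings. Leaving out single libraries gave 6 to 9 members higher and 0 to 4 lower, with 6 higher without WT 1 and 6 without Max-KO 1. Called lower were 1 without WT 1, 1 without WT 2, 0 without WT 3, 4 without Max-KO 1 and 0 without Max-KO 3. Of all genes 39.3% to 41.6% were called higher with single libraries left out. At most 22.6% of all genes were called lower (without WT 3), and 21.1% were without Max-KO 1.

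The log2 ratio of summed levels turned to -0.0484 for all members with quantile normalization, to -0.16 and -0.32 for H2A with median-ratio and quantile scaling, and to 0.21 for H3 with TPM, and for H3 ran from -0.17 to 0.10 over single libraries left out. Genes for histone mRNA processing called higher numbered 13 with TPM and 5 with median-ratio scaling (8 as reported), the latter beside 10 lower. Chaperones gave 12 higher and 7 lower with TPM, and 0 higher by limma with median-ratio scaling (0 at an unadjusted p under 0.05), against 4 and 11. Histones outside the clusters gave 3 higher with median-ratio scaling, against 6. Among all genes TPM called 53.7% higher and 16.1% lower, and median-ratio scaling 30.7% and 33.9%. H3f3a turned to 0.0072 with quantile normalization and Mcm4 to -0.0787 with median-ratio scaling. The causes were not tested.

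Deviations of same-numbered WT and Max-KO libraries correlated at -0.002, 0.018 and 0.088, and not every library correlated best with its own number, so the numbers are not taken as pairs. With the replicate block, 7 members were called higher and 2 lower, the latter Hist1h2ap and Hist3h2ba in place of Hist1h2ad and Hist1h3h. Of all genes 42.3% were called higher and 22.4% lower with that block.

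Of 61 members with an estimate, 31 rested on a mean under 10 fragments per library, and the part of depth in the calls was not tested.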
